A study of Homo sapiens with 18 samples.

Results

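The cytosolic ribosomal protein genes are the protein-coding genes whose symbol is RPL or RPS followed by a number, with RPLP0 to RPLP2 and RPSA, and without the RPS6K kinases and the pseudogenes. The annotation held 82 such genes, of which 67 had values here, 28 of the small and 39 of the large ribosomal subunit, among 12755 genes in all. The other 15, among them RPL10L, RPL13, RPL15, RPL18, RPL23, RPL26, RPL32, RPL35A, RPL36A, RPL39L, RPS10, RPS15 and RPS4X, were not analysed here. Newly made RNA was measured by full-length SLAM-seq in MDA-MB-453, an established human breast cancer line of luminal type with androgen receptor. Cells received JQ1-VHL, which joins a BET bromodomain ligand to a ligand of the VHL ubiquitin ligase and so leads BET proteins to degradation, or the vehicle DMSO. Exposure lasted 3 h in both arms, and 4-thiouridine at 0.1 mM was present in both for the final 60 min. Each arm was sampled as nuclear, cytoplasmic and total RNA, with 3 libraries in each of the 6 groups (JQ1-VHL nuclear, DMSO nuclear, JQ1-VHL cytoplasmic, DMSO cytoplasmic, JQ1-VHL total and DMSO total). The titles of the drug-treated samples name the drug dBET, while the treatment label names JQ1-VHL, the name used here. Nothing in the labels says that the replicates were separate cultures, so p-values measure the spread between these libraries, which may be technical.

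Ribosomal proteins bind ribosomal RNA in the nucleolus to build the small and large subunits, which then leave the nucleus, and growing cells devote a large part of their mRNA to them. Their mRNAs usually begin with a C followed by a run of pyrimidines, the 5' terminal oligopyrimidine (TOP) tract, through which LARP1 and the mTOR pathway control their translation. Many of these genes host small nucleolar RNAs (snoRNAs) in introns, and their short, abundant mRNAs have left many processed pseudogenes in the human genome. BET proteins, which JQ1-VHL removes, bind acetylated histones and help RNA polymerase II into productive elongation.

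The start sites of a few members show the feature that most of them share. The RefSeq promoter table (GRCh38.p14) matched 53 of the 67 members, and 40 of these 53 (75.5%) began with a C followed by 4 bases that are each C or T, read on the gene's own strand, against 4.07% of all 35116 promoters and 5.14% of their 27305 genes. In the lines below, 25 bases before the start and 15 from the start onwards are printed 5' to 3' on the gene's strand, and capitals mark the pyrimidine run that begins at the start. They are shown for a member called lower in the nucleus (RPSA), those with the highest nuclear over cytoplasmic values in DMSO (RPL21 and RPL41) and the lowest (RPS6 and RPS12), one of the highest nuclear changes (RPL37A), and a pair without a TOP tract at the annotated start (RPL4 and RPS27L).
RPSA (chr3:39406695-39406734, plus strand): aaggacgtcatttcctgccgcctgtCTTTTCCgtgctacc
RPL21 (chr13:27251533-27251572, plus strand): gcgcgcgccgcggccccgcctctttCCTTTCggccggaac
RPL41 (chr12:56116608-56116647, plus strand): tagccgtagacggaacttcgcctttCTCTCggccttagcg
RPL37A (chr2:216498819-216498858, plus strand): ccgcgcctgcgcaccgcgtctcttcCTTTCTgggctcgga
RPS6 (chr9:19380222-19380261, minus strand): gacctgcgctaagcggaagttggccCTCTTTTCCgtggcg
RPS12 (chr6:132814544-132814583, plus strand): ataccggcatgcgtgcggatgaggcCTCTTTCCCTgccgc
RPL4 (chr15:66504841-66504880, minus strand): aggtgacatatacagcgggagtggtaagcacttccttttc
RPS27L (chr15:63157463-63157502, minus strand): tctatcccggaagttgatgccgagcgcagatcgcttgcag
The members shown span the highest and lowest values of several comparisons, and the run is 5 to 10 bases long in the 6 that have it. In RPL4 a C followed by pyrimidines comes a few bases after the annotated start. Whether a gene counts as having a TOP start thus depends on the exact position annotated. The ETS core CCGGAA, on either strand, lay within the 300-base window of 30 of the 53 members (56.6%) and of 17.25% of all promoters (20.1% of all genes). The GC box GGGCGG was in 54.7% of members and 44.95% of all promoters (48.3% of all genes), and the TATA box TATAAA in 9.4% of members and 11.53% of all promoters (13.99% of all genes). Of 53 matched genes of the mitochondrial ribosome, 4 had the TOP start and 31 had CCGGAA.

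Each deposited value is a number of T-to-C reads in 1 numbered interval of a gene, scaled by a single factor for its library. The factor is an ERCC factor by the table's name. Values are given here in units, summed over a gene's intervals. What an interval covers is not stated in the sources used here, so units need not be levels of whole mRNAs. ERCC RNAs are synthetic standards that were added in proportion to RNA mass, so units follow newly made RNA per mass of RNA and not per cell. A library held 1.58 to 6.77 M recovered T-to-C reads (M for mega), and the members took 63258 to 1081172 of them. The libraries' summed units differed widely within some groups, with 0.753 to 2.04 M in JQ1-VHL nuclear, 2.33 to 4.86 M in DMSO nuclear, 7.59 to 12.1 M in JQ1-VHL cytoplasmic, 1.80 to 18.7 M in DMSO cytoplasmic, 5.42 to 6.10 M in JQ1-VHL total and 2.78 to 10.8 M in DMSO total libraries. JQ1-VHL nuclear replicate 3, DMSO nuclear replicate 1, DMSO cytoplasmic replicates 2 and 3 and DMSO total replicate 1 stood apart in this way. Changes are therefore given on the ERCC scale and also rescaled, that is divided by a median-of-ratios factor per library, which sets a gene against the typical gene. All 9 luminal markers had values, with 5932 to 110462 units summed per library, and of 11 markers of other lineages 2 did (ALB and COL1A1), with 99.8 to 1069 units. A gene without values is not shown to be silent, since ribosomal protein genes such as RPL13 and RPS4X had none either. The missing markers of other lineages therefore cannot serve as a check of the cell type.

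Ribosomal protein genes made up a larger share of newly made RNA under JQ1-VHL in the nucleus and in total RNA. Their share of a library's units does not depend on the ERCC factor. In the nucleus it was 3.97, 3.64 and 3.99% under JQ1-VHL and 2.11, 2.65 and 2.65% under DMSO, without overlap (3.87 ± 0.20% and 2.47 ± 0.31%, SD, n = 3 each). In total RNA it was 10.4, 12.2 and 10.6% under JQ1-VHL and 7.70, 8.38 and 8.45% under DMSO, also without overlap. In the cytoplasm it was 13.9, 13.8 and 16.1% under JQ1-VHL and 9.60, 13.0 and 16.0% under DMSO, and the groups overlapped. No p is given for a sum over the members. The mitochondrial ribosomal protein genes, 61 in the table, took 0.246, 0.246 and 0.199% of nuclear units under JQ1-VHL and 0.349, 0.314 and 0.318% under DMSO. In bulk RNA, fewer cells that carry a transcript and less of it per cell cannot be told apart.

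**Figure D1:**
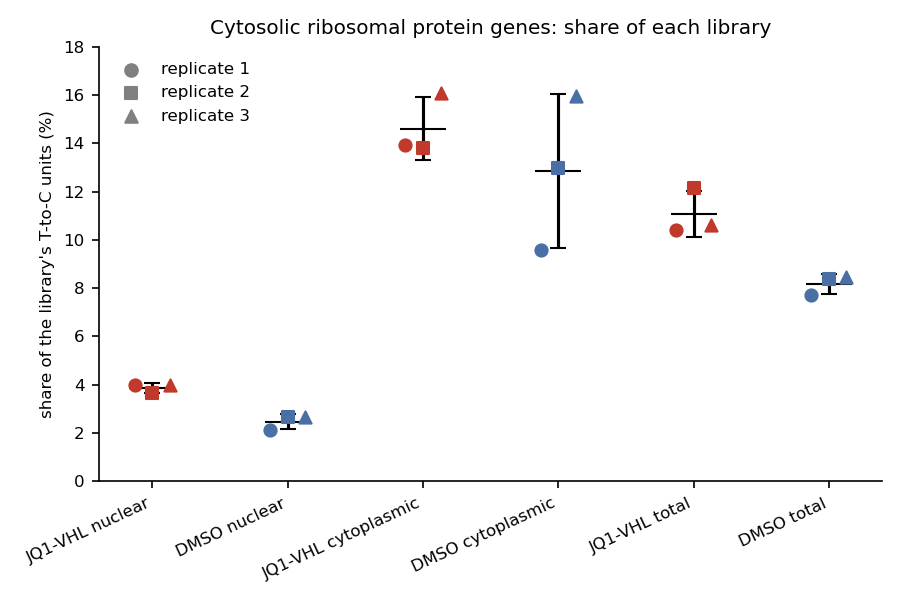
Share of each library's T-to-C units that came from the 67 ribosomal protein genes, in percent, for the 3 libraries of each group (symbols mark the replicate number; black bars are mean ± SD). The 3 JQ1-VHL nuclear libraries sit at 3.64 to 3.99%, above the DMSO nuclear ones at 2.11 to 2.65%, and the cytoplasmic groups overlap.

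On the ERCC scale the nuclear units of most ribosomal protein genes were lower under JQ1-VHL, but by less than those of most genes. Of the 65 members with a mean of at least 10 units, 62 had a negative log2 change, the median was -0.69, and the quartiles lay at -1.15 and -0.52. Over all 10191 genes tested the median was -1.82, and 33.7% were called lower and 0.177% higher at an adjusted p under 0.05 (limma, Benjamini-Hochberg over all genes). Of the 65 members, 2 were called lower, RPL7 and RPSA, and 0 higher, while 8 had an unadjusted p under 0.05. edgeR and DESeq2 on the same scale called 1 and 3 members, all lower. Within the batches, which the labels number as the replicates, the members' median was -0.99, 0.12 and -1.40, against -2.23, -0.72 and -2.42 for all genes. The member median lay 1.25, 0.84 and 1.03 above that of all genes in these batches. Of 60 mitochondrial ribosomal protein genes tested, 33 were called lower and 0 higher, with a median of -2.39.

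RPL7 and RPSA were the members called lower in the nucleus on the ERCC scale. RPL7 encodes a large-subunit protein near the 5S ribosomal RNA, and its gene lies on chromosome 8 (GRCh38, 73290267 to 73295789, minus strand, next to an overlapping stretch of RDH10). RPL7 had 97.9, 125 and 18.5 nuclear units under JQ1-VHL and 696, 286 and 235 under DMSO. All 3 JQ1-VHL libraries were below all 3 DMSO libraries, and the log2 change was -2.53 ± 0.86 (SE, limma adjusted p = 0.0181). The lowest of these values, in JQ1-VHL replicate 3, rests on 39 reads. RPSA, a small-subunit protein also known as the laminin receptor precursor (chromosome 3, 39406689 to 39412542, plus strand, host of SNORA6 and SNORA62), had 96.8, 124 and 13.3 units under JQ1-VHL and 581, 244 and 182 under DMSO. Its groups did not overlap either, and the change was -2.41 ± 0.90 (limma adjusted p = 0.0298). The lowest RPSA value, also in JQ1-VHL replicate 3, rests on 28 reads. The share of all genes without overlap was not counted. The nuclear libraries' median-of-ratios factors, which follow the typical gene, did not overlap either. They were 0.466, 0.643 and 0.1675 under JQ1-VHL and 2.23, 1.10 and 1.00 under DMSO. Absence of overlap on this scale is thus not particular to RPL7 and RPSA. Both calls rest on few libraries. Without JQ1-VHL nuclear replicate 3 (adjusted p = 0.249 for RPL7 and 0.341 for RPSA) or without DMSO nuclear replicate 1 (0.158 and 0.204) neither was called by limma, without DMSO nuclear replicate 2 RPSA was not (adjusted p = 0.0604), and edgeR on the ERCC scale did not call RPSA (adjusted p = 0.0615). With the highest interval of each gene in place of the sum RPL7 was not called (-1.82, adjusted p = 0.0939). Over all alternatives run the adjusted p ran between 0.010 and 0.249 for RPL7 and between 0.0158 and 0.385 for RPSA. After rescaling RPL7 changed by -0.68 (adjusted p = 0.174) and RPSA by -0.57 (adjusted p = 0.326).

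The next lowest nuclear changes on the ERCC scale belonged to RPS3A, RPL39 and RPL21. RPS3A, a small-subunit protein that also binds initiation factor eIF3, had 44.1, 61.3 and 9.98 units under JQ1-VHL and 271, 99.3 and 94.0 under DMSO (-2.13 ± 0.92, limma adjusted p = 0.0551, and 0.0354 with the replicate block). RPL39, a small protein of the exit tunnel through which the new chain leaves, had 49.5, 83.3 and 7.60 units under JQ1-VHL and 223, 92.1 and 95.5 under DMSO (-1.93, adjusted p = 0.0804). RPL21 had 107, 102 and 22.8 units under JQ1-VHL and 483, 167 and 173 under DMSO (-1.91, adjusted p = 0.0896). The lowest values, in JQ1-VHL nuclear replicate 3, rest on 21 reads for RPS3A, 16 for RPL39 and 48 for RPL21. In all 3 genes the groups did not overlap, which held for the typical gene too, and none was called. After rescaling their changes were -0.31, -0.11 and -0.07.

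At the other end stood RPS20, which rose in the nucleus under JQ1-VHL after rescaling. RPS20 is a protein of the small-subunit head, and its gene lies on chromosome 8 (56067295 to 56074581, minus strand) with SNORD54 in an intron. It had 338, 495 and 107 nuclear units under JQ1-VHL and 160.5, 75.2 and 56.9 under DMSO. The lowest JQ1-VHL value lay below the highest DMSO value, and the ERCC-scale change of 1.56 ± 0.87 was not called (limma adjusted p = 0.131). Each batch gave a positive change, 1.07, 2.70 and 0.90. After rescaling RPS20 had 726, 769 and 638 units under JQ1-VHL and 71.8, 68.3 and 56.8 under DMSO, far apart, and the change was 3.42 ± 0.20 (limma adjusted p = 1.04e-08). It was the highest nuclear change among the 65 members on both scales.

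RPL37A and RPS29 were the other members with a positive nuclear change on the ERCC scale. RPL37A, a zinc-binding protein of the large subunit (chromosome 2, 216498189 to 216579180, plus strand), had 316, 496 and 107 units under JQ1-VHL and 360.3, 168 and 113 under DMSO. These groups overlapped (0.43, limma adjusted p = 0.648), while the rescaled values of 678, 772 and 641 under JQ1-VHL and 161, 152 and 113 under DMSO did not (2.30 ± 0.37, adjusted p = 0.000236). RPS29, a zinc-binding protein of the small-subunit head that is mutated in some families with Diamond-Blackfan anaemia, had 649, 899.5 and 246 units under JQ1-VHL and 806, 369 and 389 under DMSO (0.10, adjusted p = 0.906). Its rescaled change was 1.97 ± 0.36 (limma adjusted p = 0.000627). RPL8, a protein close to the peptidyl transferase centre, and RPS25, known for its part in initiation at viral internal entry sites, came next at -0.19 and -0.23 on the ERCC scale and 1.69 and 1.64 after rescaling.

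**Figure D2:**
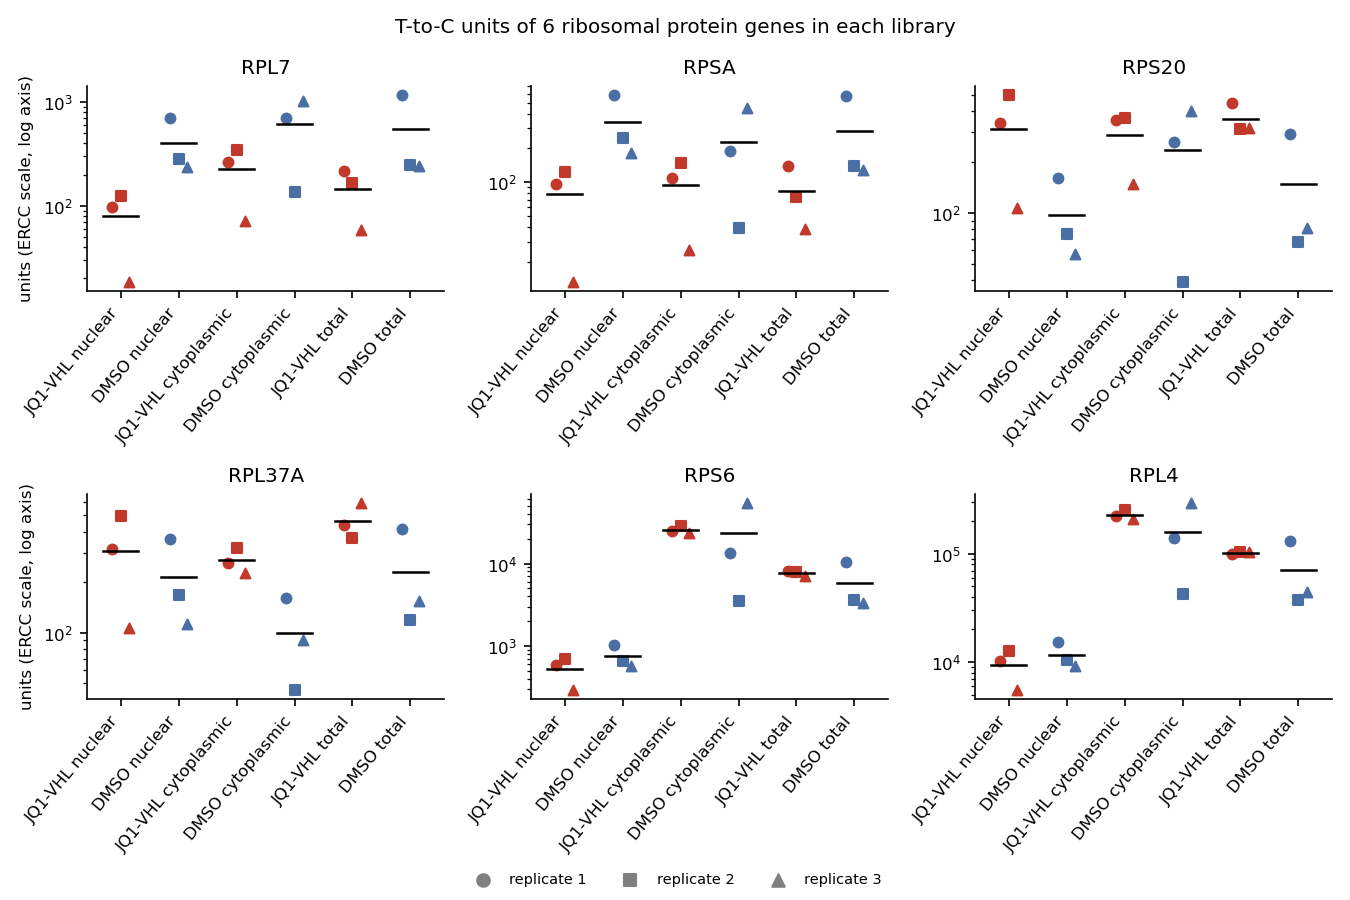
Units on the ERCC scale (log axis) of 6 ribosomal protein genes in each of the 18 libraries (symbols mark the replicate number; black lines are group means). RPL7 and RPSA are lower in all JQ1-VHL nuclear libraries, RPS20 is above every DMSO nuclear library in 2 of its 3 JQ1-VHL nuclear libraries, and RPS6 and RPL4 have far more units in the cytoplasm than in the nucleus.

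After rescaling, ribosomal protein genes stood above the typical gene in the JQ1-VHL nucleus. Of the 65 members 41 were called higher and 0 lower, with a median of 1.17, against 18.2% of all genes called higher and 12.5% lower and a median of -0.01 (limma). Within batches the members' rescaled median was 1.27, 0.89 and 1.17, and 61, 62 and 55 members were positive. edgeR with its own scaling called 39 higher and DESeq2 with its own 44 higher, with 0 lower in both. Of 60 mitochondrial ribosomal protein genes, 10 were called higher and 16 lower. The sign of the change of most members thus depends on the scale, negative against ERCC RNA and positive against the typical gene.

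Most of the members named for their roles were among the 41 that rose after rescaling, while RPL39 in the exit tunnel (-0.11) and RPS23 in the decoding centre (-0.14, limma adjusted p = 0.828) were not. RPL3, which lies next to the catalytic centre, changed by 1.36 ± 0.32 (limma adjusted p = 0.00379), and RPL4, which lines the exit tunnel, by 1.52 ± 0.24 (adjusted p = 0.000206). RPL4 had 10191, 12561 and 5546 ERCC-scale units under JQ1-VHL and 15282, 10497 and 9185 under DMSO, which overlapped. RPL5 and RPL11, which join the 5S ribosomal RNA in a particle that can bind MDM2, changed by 1.36 (limma adjusted p = 9.63e-05) and 1.22 (adjusted p = 0.00982). RPLP0, the base of the acidic stalk that recruits translation factors, changed by 1.60 (adjusted p = 0.00665). Its stalk partners RPLP1 and RPLP2 rose by 1.10 and 1.36 (adjusted p = 0.0194 and 0.00185). RPL13A, which can leave the ribosome to silence inflammatory mRNAs, changed by 1.22 (adjusted p = 0.00167), and RPL22, known to bind viral RNAs, by 1.00 (adjusted p = 0.00759). RPS6, the small-subunit protein phosphorylated by S6 kinases, had 576, 691 and 292 ERCC-scale units under JQ1-VHL and 1010.5, 646 and 572 under DMSO, and changed by 1.31 ± 0.28 after rescaling (limma adjusted p = 0.00229). RPL41, among the shortest of all human proteins, was not called after rescaling (1.26, adjusted p = 0.103, and 0.0245 with the replicate block), nor was RPS27L, a paralogue of RPS27 (0.34, adjusted p = 0.333). On the ERCC scale the nuclear changes of these members were all negative, between -1.93 for RPL39 and -0.26 for RPLP0, and none was called.

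**Figure D3:**
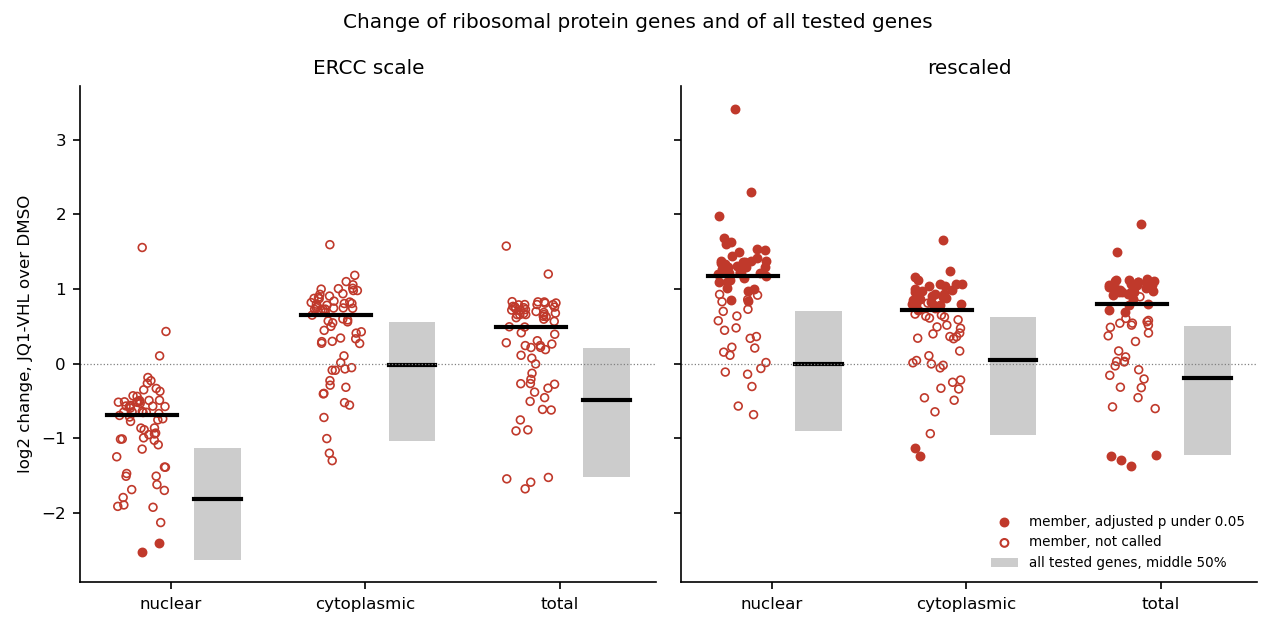
Log2 change, JQ1-VHL over DMSO, of the 65 tested ribosomal protein genes (circles, filled where the limma adjusted p is under 0.05; black lines are medians) beside the middle 50% and the median of all 10191 tested genes (grey boxes), in 3 fractions on both scales. The members' medians lie above those of all genes in every fraction, and on the ERCC scale the filled circles are RPL7 and RPSA.

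In the cytoplasm no ribosomal protein gene was called on the ERCC scale, and after rescaling 31 were higher. On the ERCC scale the members' median was 0.65 against -0.02 for all genes, with 50 of 65 positive. limma called 0 of 65, with 0 at an unadjusted p under 0.05, while 3.9% of all genes were called, and edgeR and DESeq2 on that scale also called 0. The members' batch medians were 0.67, 2.75 and -1.59, so the batches differed in sign, as did all genes at -0.35, 2.19 and -1.88. Above all genes, the members stood at 1.03, 0.56 and 0.28. After rescaling 31 members were called higher and 2 lower, RPL7 and RPS3A, against 14.8% and 15.9% of all genes. That total of 33 depends on single libraries. It was 13 with DMSO replicate 1 left out, 17 with DMSO replicate 2 left out and 16 with JQ1-VHL replicate 3 left out.

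RPL37A led the cytoplasmic changes. It had 262, 320.5 and 228 units under JQ1-VHL and 162, 45.8 and 90.9 under DMSO, without overlap (1.59 ± 0.86, limma adjusted p = 0.436, and 1.65 ± 0.37 rescaled, adjusted p = 0.00343). RPS24, mutated in some patients with Diamond-Blackfan anaemia, changed by 1.10 on the ERCC scale (limma adjusted p = 0.669), RPL31 by 1.06 and RPL27 by 1.01. Rescaled, these 3 rose by 1.16, 1.12 and 1.07 (adjusted p = 0.00187, 0.0064 and 0.000973). RPL7 was lowest, with 264, 342 and 71.2 units under JQ1-VHL and 700.1, 136 and 1022 under DMSO (-1.30 ± 0.86, limma adjusted p = 0.632). Those groups overlapped, and its rescaled values of 198, 225 and 94.3 under JQ1-VHL against 387, 402 and 357 under DMSO did not (-1.24 ± 0.38, limma adjusted p = 0.0200). RPS3A changed by -1.20 and, rescaled, by -1.14 (limma adjusted p = 0.0154). RPSA (-1.01, rescaled -0.94), RPS21 (-0.72, rescaled -0.65) and RPS23, a protein of the decoding centre (-0.56, rescaled -0.49), were not called on either scale in the fit without the block. With the replicate block, rescaled RPSA had an adjusted p of 0.0465.

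RPS6, RPL3, RPL5, RPL22, RPS27L and RPS20 were among the 31 that rose in the cytoplasm after rescaling. RPS6 had 25058, 28555 and 23327 units under JQ1-VHL and 13563, 3468 and 53902 under DMSO. The DMSO libraries lay on both sides of the JQ1-VHL ones, and its rescaled change was 0.97 (limma adjusted p = 0.0157). RPL3 (0.89, adjusted p = 0.0396), RPL5 (0.88, adjusted p = 0.00333), RPL22 (0.72, adjusted p = 0.0433) and RPS27L (0.90, adjusted p = 0.0154) were called higher after rescaling. RPL11 (0.81, limma adjusted p = 0.0681, and 0.0152 with the replicate block), RPLP0 (0.62), RPL13A (0.33) and RPL41 (0.59) were not. RPS20 had 352, 366 and 148 units under JQ1-VHL and 261, 39.2 and 402 under DMSO, which overlapped, and its rescaled change was 0.80 ± 0.20 (limma adjusted p = 0.00771).

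In total RNA the picture on the ERCC scale was again without calls. The members' median was 0.49 against -0.49 for all genes, limma called 0 of 65 with 0 at an unadjusted p under 0.05, and 3.03% of all genes were called. edgeR and DESeq2 on the ERCC scale called 0 as well. Within batches the members' median lay 0.90, 1.11 and 0.96 above that of all genes. After rescaling 35 members were called higher and 4 lower (RPL21, RPS3A, RPL7 and RPSA), against 12.2% and 18.3% of all genes, with medians of 0.79 and -0.19. With JQ1-VHL replicate 2 left out that total of 39 was 18, with JQ1-VHL replicate 3 left out it was 21, and with DMSO replicate 1 left out it was 22. RPS20 had 444, 313 and 316 units under JQ1-VHL and 294, 67.7 and 81.4 under DMSO, without overlap (1.58 ± 0.87, limma adjusted p = 0.354, and 1.87 ± 0.20 rescaled, adjusted p = 1.8e-05). RPL7 had 214, 166 and 58.8 units under JQ1-VHL and 1164, 246 and 245 under DMSO, also without overlap (-1.68 ± 0.86, adjusted p = 0.299, and -1.38 ± 0.38 rescaled, adjusted p = 0.0126). RPSA had 139, 74.6 and 38.4 units under JQ1-VHL and 578, 138 and 128 under DMSO, which overlapped narrowly (rescaled -1.25, limma adjusted p = 0.0372). Of the other members named here, rescaled changes were 1.13 for RPL3, 1.06 for RPL11, 0.96 for RPL5, 0.93 for RPS6 and 0.79 for RPL22, all called higher. RPLP0 (0.37), RPL13A (0.49), RPS27L (0.58) and RPL41 (0.54) were not called.

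RPS20 was also the member whose nuclear effect differed from its cytoplasmic effect. The difference of the effects of JQ1-VHL, nuclear minus cytoplasmic, was called on the ERCC scale for 0 of 65 members, 1 of which had an unadjusted p under 0.05, and for 0.0% of all genes (limma). edgeR and DESeq2 on that scale also called 0 members. The members' median difference was -1.34 and that of all genes -1.60. After rescaling RPS20 was called, with a difference of 2.62 ± 0.29 (limma adjusted p = 0.000285), among 1.45% of all genes called in that direction. edgeR with TMM called RPS20 alone among the members, and DESeq2 with its own size factors called 3 members. On the ERCC scale the RPS20 difference was 0.83 ± 1.23 (limma adjusted p = 0.640).

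Newly made RNA of most ribosomal protein genes had more units in the cytoplasm than in the nucleus after the 60 min of labelling. Under JQ1-VHL, nuclear over cytoplasmic values on the ERCC scale had a median of -3.94 over the members and -0.82 over all genes. There 43 of 65 were called lower in the nucleus and 0 higher, against 28.8% and 3.01% of all genes (limma). Under DMSO the median was -2.37 over the members and 0.63 over all genes. In DMSO 34 members were called lower and 2 higher, RPL21 and RPL41, against 5.92% and 14.7% of all genes. After rescaling 41 were called lower and 10 higher under JQ1-VHL, against 26.0% and 38.7% of all genes, and 48 lower and 6 higher under DMSO, against 23.7% and 33.0%. ERCC RNA was added per mass of RNA in each fraction, so these values compare the fractions' concentrations of new RNA and not amounts per cell.

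The members ran from strongly cytoplasmic to nuclear. RPS12, a small-subunit protein with a role in cell competition in Drosophila, was lowest in DMSO, with 4083, 3065 and 2930.1 nuclear units and 74186, 24085 and 406628 cytoplasmic units (-4.76 ± 0.74, limma adjusted p = 7.01e-07). RPS6 (-4.24, adjusted p = 3.91e-05) and RPL11 (-3.97, adjusted p = 9.87e-05) were next. Under JQ1-VHL these 3 genes had -5.85, -5.71 and -5.37, and all were called. At the top in DMSO, RPL21 had 483, 167 and 173 nuclear units and 56.1, 8.28 and 102 cytoplasmic units, with no overlap (2.67 ± 0.94, limma adjusted p = 0.0283). RPL41 had 472, 129.7 and 115 nuclear units and 72.7, 5.52 and 66.1 cytoplasmic units, again with no overlap (2.60 ± 0.93, adjusted p = 0.0309). RPS26, which contacts mRNA at the exit channel and is mutated in Diamond-Blackfan anaemia, had 90.9, 25.8 and 24.5 nuclear units and 4.95, 1.66 and 66.1 cytoplasmic units, which overlapped (1.96, adjusted p = 0.197). Under JQ1-VHL these 3 had 0.75, 1.50 and 0.68 on the ERCC scale, with none called. After rescaling all 3 were called more nuclear under JQ1-VHL, at 2.36, 3.14 and 2.15 (limma adjusted p = 6.78e-05, 0.000131 and 0.0258). In DMSO their rescaled values were 2.53, 2.47 and 1.87, of which that of RPS26 was not called (limma adjusted p = 0.0548). All these values rest on few cytoplasmic reads and are uncertain. The JQ1-VHL cytoplasmic libraries held 31, 11 and 24 reads of RPL21, 45, 47 and 6 of RPL41 and 3, 3 and 8 of RPS26. The DMSO cytoplasmic libraries held 34, 15 and 37 reads of RPL21, 44, 10 and 24 of RPL41 and 3, 3 and 24 of RPS26. Units differed by orders of magnitude between members, but values of different genes are not set side by side since gene length was not taken into account.

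**Figure D4:**
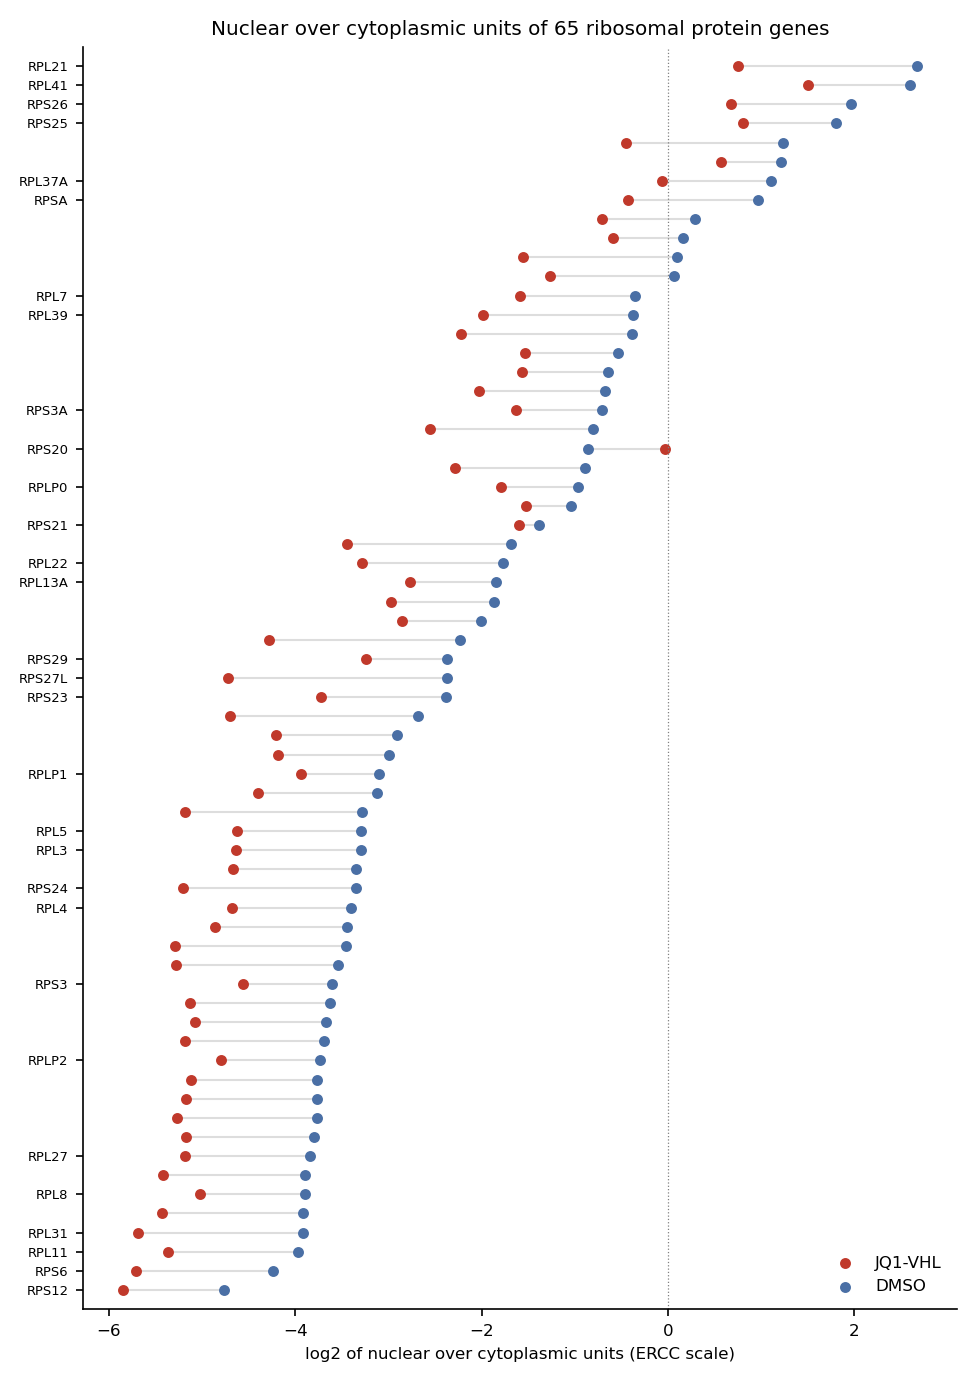
Log2 of nuclear over cytoplasmic units (ERCC scale) for the 65 tested ribosomal protein genes under JQ1-VHL and under DMSO, ordered by the DMSO value, with the genes discussed in the text labelled. Most members lie far left of 0 under both treatments, RPL21 and RPL41 lead in DMSO at 2.67 and 2.60, and RPS20 is the member whose JQ1-VHL value lies to the right of its DMSO value.

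Features outside the choice of members were set beside the nuclear change as a description. Small-subunit members (28 tested) had a median ERCC-scale change of -0.66 and large-subunit members (37 tested) of -0.74. The 25 members with a snoRNA gene inside had a median of -0.70 and the 40 without one of -0.69. The 39 tested members with a TOP start had a median of -0.67 and the 13 with another annotated start of -1.01. The 26 members that overlap another protein-coding gene had a median of -0.82 and the 39 others of -0.65. Subunit and snoRNA genes thus set members apart by less than 0.1.

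Members with more pseudogenes that carry their name had lower changes. Members with 30 or more such pseudogenes (15 genes) had a median nuclear change of -1.39, those with 10 to 29 (20 genes) of -0.86 and those under 10 (30 genes) of -0.57. In total RNA these medians were -0.51, 0.36 and 0.68. Across the 65 members Spearman's rho of the pseudogene number was -0.39 with the nuclear change, -0.36 with the cytoplasmic change and -0.48 with the change in total RNA, given as a description, since members share libraries and each library's depth. The nuclear over cytoplasmic value in DMSO had a rho of 0.36 and that under JQ1-VHL of 0.31. RPL21 has 133 such pseudogenes, RPSA 75, RPL7 61 and RPS3A 53, against 19 for RPS20, 15 for RPS6 and 3 for RPL41. Other members with many pseudogenes lay nearer the member median in the nucleus, among them RPL31 with 62 (-0.72, and 1.06 in the cytoplasm), RPL7A with 80 (-1.01) and RPL23A with 91 (-0.99). RPL5 with 35 (-0.51) and RPS29 with 32 (0.10) lay above that median, while RPL12 with 50 (-1.70) and RPL29 with 33 (-1.795) lay well below it. Reads from near-identical copies can be lost or split in alignment, and the strand and the counting rule are not given in the sources used here, so the values of such members are uncertain. The part of the copies in these differences was not tested.

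**Figure D5:**
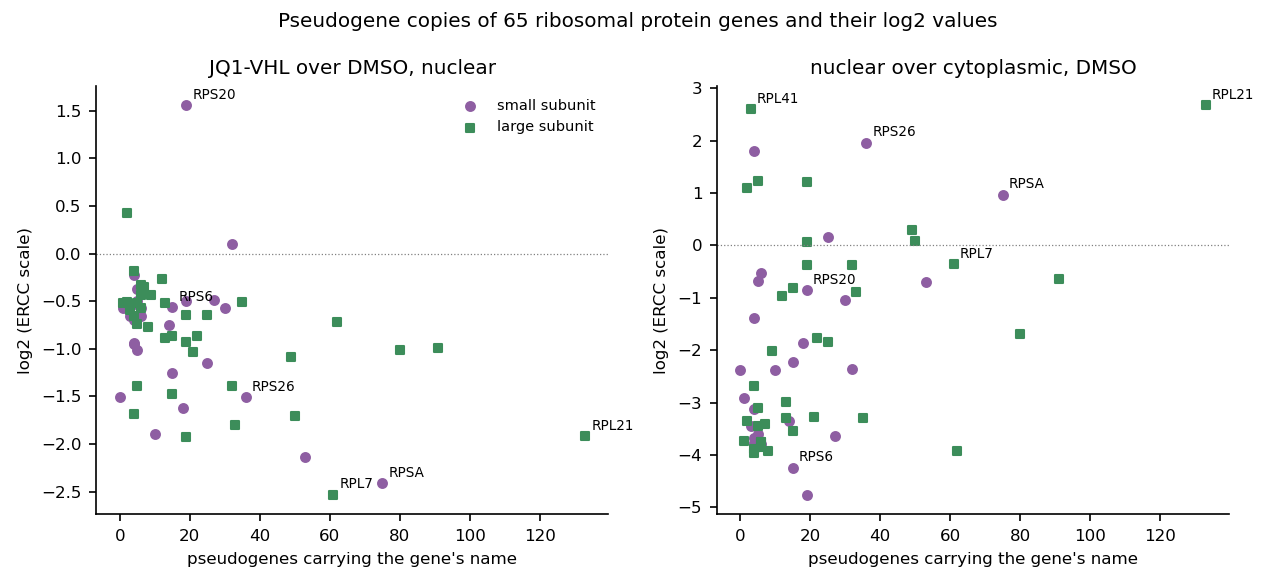
Number of pseudogenes carrying a member's name against its log2 nuclear change, JQ1-VHL over DMSO (left), and against its log2 nuclear over cytoplasmic value in DMSO (right), for the 65 tested members on the ERCC scale, with small-subunit members as circles and large-subunit members as squares. RPL7, RPSA and RPL21 combine many pseudogenes with low nuclear changes, and RPL41 has a high nuclear over cytoplasmic value with 3 pseudogenes.

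The table gives each gene as numbered intervals, 224 for the members, and these did not always behave alike within a gene. What an interval covers is not stated. RPL41 had 2 annotated exon blocks (overlapping exons merged) and 1 interval, RPL8 had 4 and 3, and RPS19 had 8 and 7. RPL11 had 5 of each, and RPS12 had 6 blocks and 8 intervals. The 6 intervals of RPL7 had log2 ratios of mean nuclear units, JQ1-VHL over DMSO, of -1.74, -1.92, -1.91, -2.31, -2.77 and -3.25, so each was lower. In DMSO the first 3 of them were more cytoplasmic (nuclear over cytoplasmic -1.91, -1.19 and -0.97) and the last 3 more nuclear (2.10, 1.94 and 2.48). RPSA had nuclear ratios of -1.71, -2.17 and -1.93. Both intervals of RPS20 were higher in the nucleus, with means of 131 and 182 units under JQ1-VHL and 37.6 and 59.9 under DMSO. In RPS3, a protein at the mRNA entry channel, intervals 1 to 7 were cytoplasmic in DMSO (-4.58 to -4.10), while interval 8 was nuclear, with means of 640.0 nuclear and 44.6 cytoplasmic units. In RPL4, intervals 1 to 4 had nuclear ratios of -0.35 to -0.23, JQ1-VHL over DMSO, and intervals 5 and 6 of -1.07 and -0.99. RPL11 likewise had -2.31 in interval 5, with means of 6.66 units under JQ1-VHL and 36.9 under DMSO, against -0.80 to -0.40 in intervals 1 to 4. Neighbouring intervals with at least 1000 reads differed by less than 2% in 29.5% of 78 member pairs in JQ1-VHL and 27.6% of 76 in DMSO cytoplasmic libraries, and in 6.38% of 47 and 5.88% of 51 in the nuclear libraries of the same arms, so a read may be counted more than once. In other genes the same share was 24.7% in JQ1-VHL and 24.6% in DMSO cytoplasmic libraries, and 15.01% in JQ1-VHL and 8.82% in DMSO nuclear ones.

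RPL3L and RPL36 had means under 10 units and were left out of the tests. RPL3L, a paralogue of RPL3 known from heart and skeletal muscle, had 17.0, 20.0 and 2.38 nuclear units under JQ1-VHL (32, 31 and 5 reads) and 1.64, 1.12 and 0 under DMSO (2, 2 and 0 reads). Every JQ1-VHL value was above every DMSO value. All RPL3L values came from 1 interval, number 10, of a gene with 11 annotated exon blocks. RPL36, a large-subunit gene that overlaps HSD11B1L, LONP1 and MICOS13, had 0.532, 1.29 and 0 nuclear units under JQ1-VHL (1, 2 and 0 reads) and 11.5, 7.30 and 4.23 under DMSO (14, 13 and 9 reads). Without the filter on low values limma called 1 member higher and 3 lower in the nucleus, the first of them RPL3L and the others RPL7, RPSA and RPL36.

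Genes tied to ribosomal proteins were read from lists. Of 27 TOP mRNAs other than ribosomal protein genes, 1 was called lower in the nucleus on the ERCC scale, against 33.7% of all genes, namely EIF3G, an initiation factor subunit (-2.94, limma adjusted p = 0.0148), with a median of -0.78. After rescaling 20 were called higher and 0 lower in the nucleus, with a median of 1.08, against 18.2% and 12.5% of all genes. In the cytoplasm 13 were higher and 1 lower, against 14.8% and 15.9% of all genes. EEF1B2, an elongation factor subunit, had the next lowest change (-1.91, adjusted p = 0.0603), and the highest belonged to the snoRNA host SNHG5 (0.28, adjusted p = 0.771) and the histone chaperone gene NAP1L1 (-0.20, adjusted p = 0.807). Of 5 genes related to ribosomal proteins outside the naming rule, 0 were called, at an adjusted p of 0.242 or more, with RPL36AL at -0.81 and RACK1, a signalling scaffold on the small subunit, at -0.98, and RPL26L1 at -1.28 and RPL22L1 at -1.22. After rescaling 2 of these 5 were called higher.

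The lists of factors that build subunits, control TOP mRNAs or act on transcription had nuclear medians between -2.22 and -1.86. The median of all genes was -1.82 on the ERCC scale, with 33.7% called lower and 0.177% higher, and -0.01 after rescaling, with 18.2% called higher and 12.5% lower. Of 21 chaperones and assembly factors, 11 were called lower in the nucleus and 0 higher, with a median of -2.14. They were led by EIF6, which keeps the large subunit from joining (30.4 ± 25.5 nuclear units under JQ1-VHL and 210.3 ± 161 under DMSO, SD, n = 3 each, -3.46, limma adjusted p = 0.00666), and LTV1, an assembly factor of the small subunit (-3.20, adjusted p = 0.00535). MRTO4 (-0.37) and NXF1, the mRNA export receptor (-0.47), were the highest. After rescaling 3 were called higher and 3 lower, with a median of -0.32. Of 15 tested genes for the control of TOP translation, 4 were lower and 0 higher, with a median of -1.86 and with AKT1S1, the mTORC1 subunit PRAS40 (-4.26, limma adjusted p = 0.00226), and PDCD4, an inhibitor of the helicase eIF4A (-3.93, adjusted p = 0.000571), lowest and EIF4EBP2 (-0.63) and MTOR (-0.87) highest. Rescaled, 4 were higher and 3 lower. Of 11 genes for the transcription of ribosomal protein genes and the response to their imbalance, 6 were lower and 0 higher, with a median of -2.22, led by MYC (4.97 nuclear units under JQ1-VHL and 231 under DMSO on average, -5.37, limma adjusted p = 3.9e-05), while NCL (-1.34) and YY1 (-0.97) were highest. Rescaled, 1 was higher and 2 lower. These counts were not compared with each other by a test.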

How the data were processed

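MDA-MB-453 cells were sequenced as 18 SLAM-seq libraries. The submitters' processing notes name the tools DESeq2, HTSeq, HISAT2, Trimmomatic 0.39 and bcl2fastq, and, as genome builds, dm3 and GRCh37/hg19. How T-to-C reads were called, what an interval covers, the strand and the counting rule are not given in the sources used here. The deposited values are a signal per interval: T-to-C read counts over a single scaling factor for each library, named ERCC in the authors' table. All values (100%) were whole multiples of 1 read within 0.01 of a read, so reads were recovered. The 98665 intervals were summed per gene ID (12755 genes, 12512 matched to a symbol), so a read counted in several intervals adds each time. Positions, snoRNAs and pseudogenes come from GENCODE 29 on GRCh38, used for annotation only.

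Genes with a mean of at least 10 units over the 18 libraries were tested (10191 genes, 99.8% of the summed value). limma 3.58.1 (R 4.3.3), with trend and robust moderation, was run on log2(value + 1), so fold changes of low genes are understated. It had 1 mean per group, two-sided tests and Benjamini-Hochberg adjustment over all genes tested, at 0.05. On the ERCC scale limma's prior degrees of freedom were infinite for most genes against 12 residual ones, so the spread was treated as known and calls carry more certainty than 3 libraries a group can give. An exact permutation test of 3 against 3 cannot give a p under 0.1. For rescaled values each library was also divided by its median ratio to the geometric mean over 7799 tested genes without a 0. Whole recovered reads were also tested with edgeR 4.0.16 and DESeq2 1.42.0. Since no molecular identifiers are described, reads may be PCR copies, and read counts show counting depth only.

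Batch numbers in the labels match the replicate numbers, which pairs the samples. Deviations of same-numbered JQ1-VHL and DMSO libraries from their group means correlated across genes at 0.27, -0.14 and 0.29 in the nucleus, 0.06, -0.05 and 0.02 in the cytoplasm and 0.22, 0.08 and 0.16 in total RNA.

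Members named are those called on the ERCC scale, the 5 highest and 5 lowest nuclear and cytoplasmic changes, the 3 highest and 3 lowest nuclear over cytoplasmic values in DMSO, and 12 chosen members. Of each list the 2 highest and 2 lowest nuclear changes are named. RPL4, RPL7A, RPL23A, RPS3, RPL3L, RPL36 and the stalk partners were named for their intervals, pseudogenes, level or role after their values were seen. Some genes that this rule selects are not reported here. Members and lists were chosen with earlier results of these data known. Alternatives were other pseudocounts, no filter, the highest interval of each gene, the replicate block, other tools and leaving out each library.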

Additional observations from a re-analysis of the deposited data

Results flagged for a closer look

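RPS20 was marked because its response to JQ1-VHL differed between the nucleus and the cytoplasm by a test of the difference itself. On rescaled values the nuclear change was 3.42 and the cytoplasmic change 0.80, and their difference was 2.62 ± 0.29 (limma adjusted p = 0.000285 over 10191 genes). The rescaled nuclear change was 3.32, 3.47 and 3.47 in the 3 batches and the cytoplasmic change 0.87, 1.05 and 0.47. On the ERCC scale the difference was 0.83 (limma adjusted p = 0.640).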

How the results depend on the processing

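The nuclear count of 2 called members on the ERCC scale became 4 without a filter, 1 with edgeR on the ERCC scale, 41 after rescaling, 39 with edgeR TMM and 44 with DESeq2's own size factors, and 0 to 7 when a library was left out (0 without JQ1-VHL nuclear replicate 3 or DMSO nuclear replicate 1, 1 without DMSO nuclear replicate 2, 7 without JQ1-VHL nuclear replicate 2). In the same order (rescaled, edgeR TMM, DESeq2's own) the cytoplasmic count of 0 became 33, 30 and 30, the total count of 0 became 39, 44 and 39, and the count for the nuclear minus cytoplasmic effect of 0 became 1, 1 and 3. Leaving out a library gave 0 in each case for these on the ERCC scale, 13 to 40 for the rescaled cytoplasmic count (13 and 17 for DMSO replicates 1 and 2, 16 for JQ1-VHL replicate 3) and 18 to 38 for the rescaled total count (18 and 21 for JQ1-VHL replicates 2 and 3, 22 for DMSO replicate 1), and 36 to 39 for the rescaled nuclear count of 41. The difference in nuclear share, 1.40 percentage points, was 1.73 with the highest interval of each gene. With the replicate block RPS3A was called lower in the nucleus, which made 3 calls, and RPS7 was called lower in the nucleus than in the cytoplasm in DMSO. On rescaled values RPL41 and RPS14 were then called in the nucleus and RPL11, RPLP2, RPS12, RPS19, RPS3 and RPSA in the cytoplasm. Among members named here the block changed no other call.

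On rescaled values, with edgeR TMM and with DESeq2's own size factors, these nuclear changes turned from negative to positive and passed the threshold: RPL11 1.22, 1.05 and 1.25, RPL13A 1.22, 1.07 and 1.24, RPL22 1.00, 0.82 and 0.99, RPL3 1.36, 1.19 and 1.39, RPL5 1.36, 1.18 and 1.37, RPL8 1.69, 1.50 and 1.70, RPLP0 1.60, 1.45 and 1.61, RPS25 1.64, 1.45 and 1.62 and RPS6 1.31, 1.14 and 1.33. RPL41 did so with DESeq2's own size factors (1.25). Scaling against the typical gene moves the median of all genes from -1.82 to -0.01 in the nucleus, which by construction shifts every gene there. Depth limits the nuclear values most, since JQ1-VHL nuclear replicate 3 held 1.58 M reads. The rescaled tests by other tools and without single libraries were chosen after seeing the data.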
